A study of Mus musculus with 14 samples.

Results

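The 38 antioxidant, glutathione and iron storage genes were followed through 14 microarrays of mouse regulatory T cells. They were taken by gene symbol from a list of enzymes and carriers that remove superoxide and peroxides, run the thioredoxin and glutaredoxin systems, make and use glutathione, control or answer to the transcription factor Nrf2, or store iron. All 38 were found, each as 1 transcript cluster (the set of probes that reads 1 gene), among 22203 transcript clusters with a gene symbol. The cells came from Rag1-/- mice, which lack their own T and B cells. These hosts had been sublethally irradiated and given equal parts of wild-type CD45.1+ marrow and CD45.2+ marrow of the genotype under test. The CD45.2+ marrow carried Cre recombinase under Foxp3, the gene that defines regulatory T cells, together with either 1 floxed and 1 normal Atg14 allele (labelled Atg14het, the controls) or 2 floxed alleles (labelled Atg14KO). Atg14 is a subunit of the Vps34 lipid kinase complex that starts autophagosomes. Controls therefore carried the Cre and 1 floxed allele as well. CD4+ Foxp3-YFP+ cells of CD45.2+ origin were sorted into central regulatory T cells (cTregs, CD44 low and CD62L high) and effector regulatory T cells (eTregs, CD44 high and CD62L low). There were 4 control and 3 KO arrays of cTregs, and 4 control and 3 KO arrays of eTregs. The study names the spleen as the source, and the deposited design adds peripheral lymph nodes (pLN). Age was not given in the labels used here.

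Reactive oxygen species are removed in steps. Superoxide dismutases turn superoxide into hydrogen peroxide, which catalase, the glutathione peroxidases and the peroxiredoxins then reduce, and the last groups draw their electrons from glutathione or thioredoxin and in the end from NADPH. The transcription factor Nrf2 (encoded by Nfe2l2) is held down by Keap1 and, once released, binds antioxidant response elements before many of these genes, whereas ferritin keeps iron from feeding radical chemistry. Autophagy bears on both sides, since it turns over ferritin, mitochondria and the adaptor p62 (encoded by Sqstm1), which competes with Nrf2 for Keap1.

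Signals are given on the log2 scale of the deposited table, on which a difference of 1 is a doubling. The median of the background probes lay between 6.00 and 6.30 in the 14 arrays, and all 38 genes had means above 6.30 in each of the 4 groups. The signal of Atg14 was 9.26, 8.96, 8.64 and 8.89 in control cTregs 1 to 4 and 9.24, 9.33 and 9.29 in KO cTregs 1 to 3, and it was 8.92, 9.01, 8.77 and 8.64 in control eTregs 1 to 4 and 9.15, 9.0 and 9.32 in KO eTregs 1 to 3. The arrays labelled KO were thus not lower. In eTregs their mean was 0.32 higher (SE 0.14, 95% interval 0.03 to 0.61, limma unadjusted P = 0.0323, adjusted P = 0.55). In cTregs their mean was 0.35 higher (SE 0.14, 95% interval 0.06 to 0.64, limma unadjusted P = 0.0213, adjusted P = 0.9999). The study reports that it verified Atg14 deletion by quantitative PCR in total regulatory T cells of its knockout mice. Which exons the Atg14 probes read was not analysed here, and a probe outside the floxed part would check nothing, so groups below are named as labelled. All 7 markers of regulatory T cells, Foxp3 among them, had group means above background, with a summed linear signal of 33349.5 to 42660.4, and the summed signal of 8 effector markers was 3778 to 5342 in cTregs and 10154 to 19868 in eTregs.

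Among the promoter windows of these genes, 3 are shown because Glrx and Mgst3 carry the differences between the subsets and Gclm carries the largest difference between genotypes. The sequences are RefSeq windows of build GRCm38.p6, running from 250 bases before to 50 bases after the listed start, 5′ to 3′ on the strand of the gene. Capitals mark matches to the core of the antioxidant response element (TGACNNNGC, searched on both strands) or to an AP-1 type element (TGANTCA, which reads the same on both strands). The windows lie at chr13:75839635-75839934 (plus strand) for Glrx, chr1:167393792-167394091 (minus strand) for Mgst3 and chr3:122245307-122245606 (plus strand) for Gclm.
Glrx: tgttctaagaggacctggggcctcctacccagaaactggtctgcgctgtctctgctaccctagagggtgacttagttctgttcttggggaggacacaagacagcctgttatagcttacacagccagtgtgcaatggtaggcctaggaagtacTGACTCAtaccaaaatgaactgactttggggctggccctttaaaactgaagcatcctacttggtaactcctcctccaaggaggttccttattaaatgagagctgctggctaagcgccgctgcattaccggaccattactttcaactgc
Mgst3: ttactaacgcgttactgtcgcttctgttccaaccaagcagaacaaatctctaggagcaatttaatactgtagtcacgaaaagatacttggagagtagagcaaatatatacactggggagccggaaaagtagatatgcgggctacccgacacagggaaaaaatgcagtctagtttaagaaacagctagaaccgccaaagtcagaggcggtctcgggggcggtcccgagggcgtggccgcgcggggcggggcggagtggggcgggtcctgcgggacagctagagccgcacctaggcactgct
Gclm: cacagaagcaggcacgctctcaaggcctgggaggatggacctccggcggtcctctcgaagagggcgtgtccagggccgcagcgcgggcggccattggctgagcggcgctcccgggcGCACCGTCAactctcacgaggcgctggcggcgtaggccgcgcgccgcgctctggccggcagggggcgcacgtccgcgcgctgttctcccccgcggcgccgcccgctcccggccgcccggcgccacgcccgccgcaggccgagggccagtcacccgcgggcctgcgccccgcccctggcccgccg
The AP-1 type match of Glrx lay 98 to 92 bases before the listed start, and the antioxidant element of Gclm, on the opposite strand, 134 to 126 bases before it. The Mgst3 window held neither string of letters. A window was listed for 33 of the 38 genes, and not for Prdx6, Msra, Gclc, Gsr and Oxr1. Of those 33, 7 (21.2%) held the antioxidant core, namely Nfe2l2, Srxn1, Gclm, Prdx1, Txnrd1, Sod1 and G6pdx, beside 3781 of all 27025 genes with a window. The AP-1 type element was found in 4 of 33 (12.1%), namely Glrx, Srxn1, Mgst2 and Prdx1, beside 2425 of the 27025 (8.97%), and in Prdx1 both motifs overlapped. A match describes letters and is no evidence of binding.

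**Figure D1:**
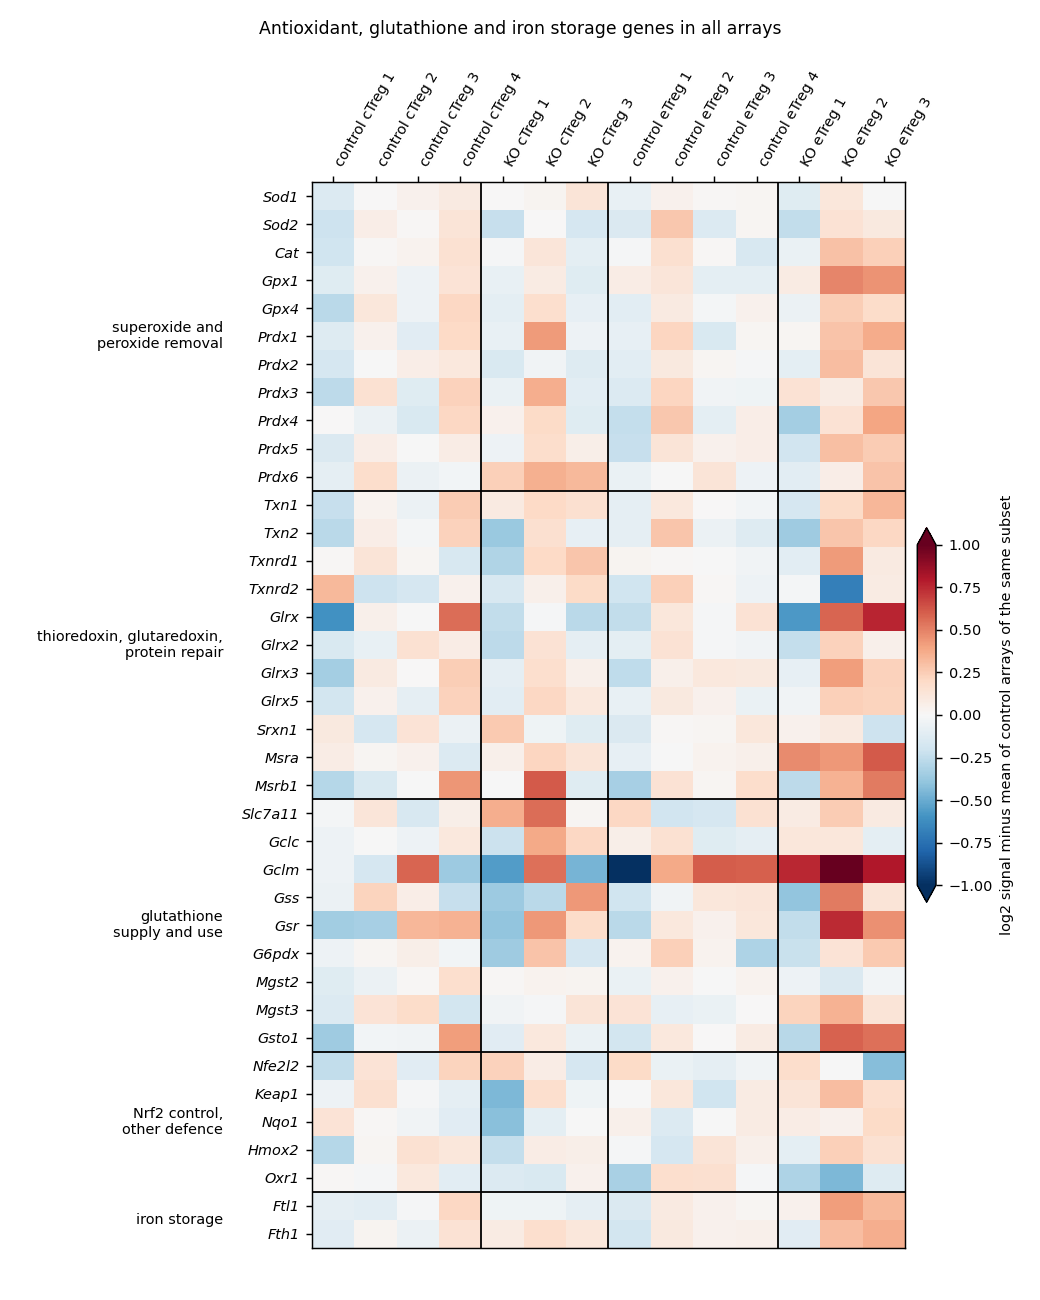
Log2 signal of the 38 genes (rows, by role) in each of the 14 arrays (columns), as the difference from the mean of the control arrays of the same subset; colours are capped at -1 and 1, which control eTreg 1 and KO eTreg 2 exceed for Gclm. The columns of KO eTreg 2 and KO eTreg 3 are red for most genes (medians 0.26 and 0.22), whereas that of KO eTreg 1 is pale or blue (median -0.09).

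In controls, eTregs differed from cTregs in 2 of the 38 genes, glutaredoxin and a microsomal glutathione transferase, and the median difference over the 38 was -0.02, beside 0.00 over all transcript clusters. Glrx encodes the cytosolic glutaredoxin, which frees protein thiols from glutathione. Its signal was 7.31, 7.97, 7.92 and 8.47 in control cTregs and 8.88, 9.24, 9.11 and 9.26 in control eTregs. Every eTreg array lay above every cTreg array, and the cTreg arrays were the more scattered (7.92 ± 0.48 against 9.12 ± 0.18, SD, n = 4 each). The log2 difference was 1.20 (SE 0.26, 95% interval 0.66 to 1.75, 2.3-fold higher in eTregs, limma adjusted P = 0.0119), and it kept its adjusted call without any single array. The summed signal of 17 monocyte and macrophage markers was 7695 to 8865 in control cTregs and 10926.5 to 13059 in control eTregs. The part of such cells in the Glrx difference was not tested. Mgst3, a microsomal glutathione transferase and peroxidase, was lower in eTregs. It was 8.57, 8.85, 8.90 and 8.53 in control cTregs and 8.12 to 8.33 in the 4 control eTregs, with no overlap. The log2 difference was -0.52 (SE 0.11, 95% interval -0.74 to -0.29, limma adjusted P = 0.00915). Its size lay close to the limit of 0.5, and without control cTreg 2, control cTreg 3, control eTreg 2 or control eTreg 3 it came to between -0.46 and -0.50 and missed that limit, with adjusted P still between 0.0348 and 0.0421.

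These 2 genes passed both thresholds used here, namely the threshold of the study (an absolute log2 difference of at least 0.5 with unadjusted P below 0.05), which 4.72% of all transcript clusters passed, and the same change with Benjamini-Hochberg adjusted P below 0.05, which 3.06% passed. At unadjusted P below 0.05 and any size there were 7 of the 38, where 12.8% of all transcript clusters reached it. Thioredoxin and its mitochondrial reductase were among the higher ones, with Txn1 at 0.32 (SE 0.12, adjusted P = 0.221) and Txnrd2 at 0.46 (SE 0.17, adjusted P = 0.196) in the limma fit. On the lower side stood Keap1, the Nrf2 inhibitor, at -0.27 (SE 0.12), the methionine sulfoxide reductase Msra at -0.28 (SE 0.09) and the quinone reductase Nqo1 at -0.29 (SE 0.10), with adjusted P of 0.372, 0.122 and 0.199. None of these 5 passed the adjusted threshold. The arrays of both subsets did not overlap for 6 of the 38 (Glrx and Txnrd1 higher, Mgst3, Msra, Nqo1 and Keap1 lower), beside 11.1% of all transcript clusters. Peroxide removal differed little, since all 11 enzymes of superoxide and peroxide removal had differences between -0.18 and 0.15 with intervals inside 0.5 on either side. Such intervals were found for 16679 of all 22203 transcript clusters. Ferritin light and heavy chains differed by 0.02 to 0.05.

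In the arrays labelled KO, the glutaredoxin difference was seen again. Glrx was 7.67, 7.91 and 7.65 in KO cTregs and 8.54, 9.71 and 9.88 in KO eTregs, so that KO eTreg 1 stood well below the other two but above every KO cTreg (means 7.74 ± 0.14 and 9.38 ± 0.73, SD, n = 3 each). The difference of 1.64 (SE 0.30, 95% interval 1.01 to 2.26, 3.11-fold higher in eTregs, limma adjusted P = 0.00655) passed the adjusted threshold. The Glrx difference came to 1.38 to 2.05 with single arrays left out, always with the adjusted call, whereas a fit of the KO arrays alone gave limma adjusted P = 0.0545. When KO eTreg 1 was the only KO eTreg array kept, it was 0.80 (limma adjusted P = 0.455). No other gene of the 38 passed either threshold, where 5.81% of all transcript clusters passed that of the study and 2.35% the adjusted one. Mgst3 was 8.68, 8.70 and 8.84 in KO cTregs and 8.41, 8.54 and 8.32 in KO eTregs, again without overlap, but the difference of -0.32 (SE 0.12, limma adjusted P = 0.24) stayed under the size limit.

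At unadjusted P below 0.05 there were 6 of 38 in the KO arrays, against 13.8% of all transcript clusters. Beside Glrx and Mgst3 these were the glutathione peroxidase Gpx1 (0.36, SE 0.13), ferritin light chain Ftl1 (0.34, SE 0.12) and the peroxiredoxin Prdx2 (0.30, SE 0.12), each with a higher mean in eTregs, and the peroxiredoxin Prdx6 with a lower one (-0.33, SE 0.12). Their adjusted P values in limma lay between 0.174 and 0.254. With KO eTregs 2 and 3 left out, Gpx1, Ftl1 and Prdx2 differed by 0.11, 0.12 and 0.09. In the same comparison 17 monocyte and macrophage markers had a median difference of 1.56, with 15 at unadjusted P below 0.05, and their part in these differences was not tested. Arrays of both subsets did not overlap for 6 of 38 (Glrx, Ftl1 and Prdx2 higher, Prdx6, Mgst2 and Mgst3 lower), beside 14% of all transcript clusters.

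**Figure D2:**
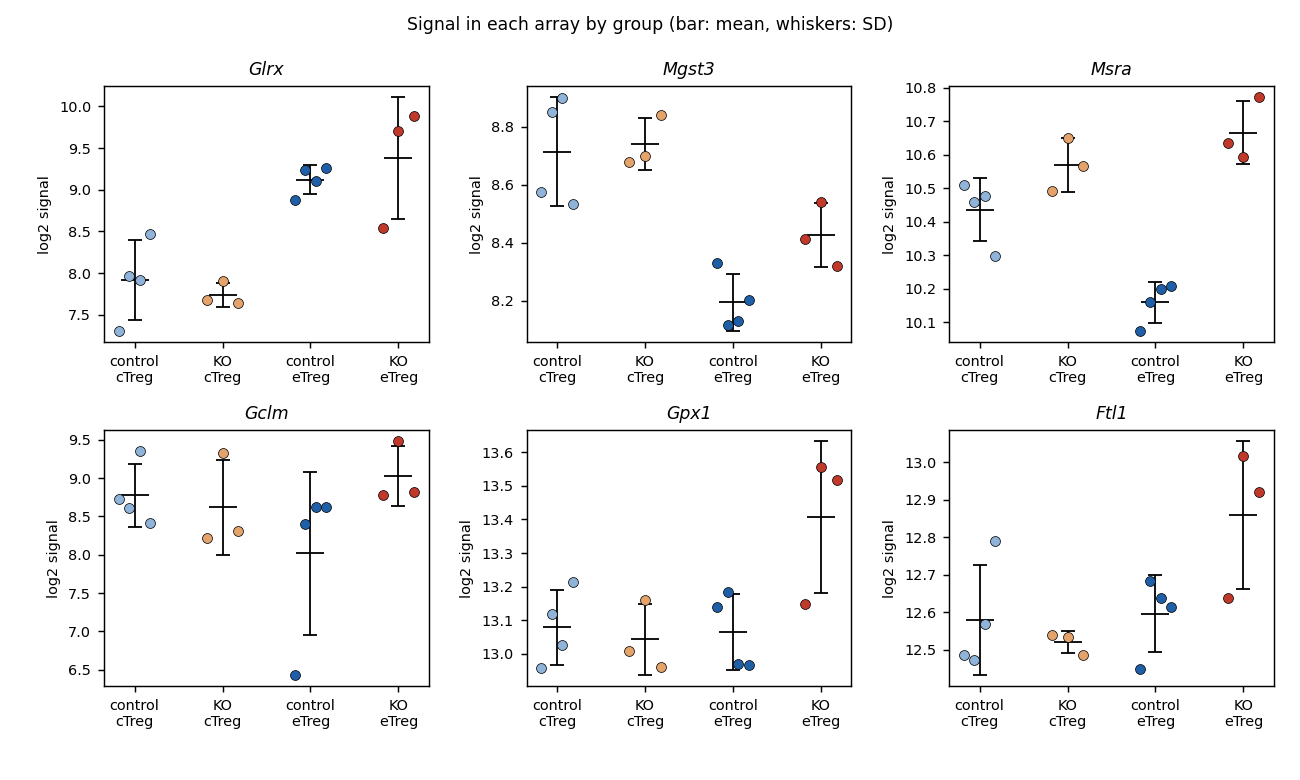
Log2 signal of Glrx, Mgst3, Msra, Gclm, Gpx1 and Ftl1 in each array, by group; bars are means and whiskers SD (n = 4 control and n = 3 KO arrays per subset). Glrx is higher and Mgst3 lower in eTregs of both labels, Msra is higher in all 3 KO eTreg arrays (10.59 to 10.77) than in all 4 control eTreg arrays (10.07 to 10.21), and 1 control eTreg array (6.43) sets the mean of Gclm.

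Between genotypes in eTregs, 2 of the 38 genes passed the threshold of the study, Msra and Gclm, both higher in the arrays labelled KO, beside 2.72% of all transcript clusters. None passed the adjusted threshold, beside 0.117% of all. Msra reduces oxidised methionine and so repairs proteins. It was 10.07, 10.16, 10.20 and 10.21 in control eTregs and 10.63, 10.59 and 10.77 in KO eTregs. The groups were well apart, and the 3 KO arrays were at one level (means 10.16 ± 0.06, n = 4, and 10.67 ± 0.09, n = 3, SD). The difference was 0.51 (SE 0.10, 1.42-fold, 95% interval 0.30 to 0.71, unadjusted P = 7.57e-05, limma adjusted P = 0.058). Its adjusted P fell to 0.0417 when only transcript clusters of above-median signal were tested, to 0.0059 with array weights and to 0.019 without KO eTreg 1, and the adjusted P of Msra was 0.225 without KO eTreg 3 (difference 0.45) and 0.302 when only the eTreg arrays were fitted. The size lay close to the limit of 0.5, and Msra lost the call of the study without KO eTreg 3, without control eTreg 1 (0.48) and with 75th percentiles subtracted (0.49). Control eTregs were also below control cTregs (10.51, 10.46, 10.48 and 10.30), and the KO eTregs lay above every control cTreg array. Msra and Atg14 both lie on chromosome 14, and whether this bears on the Msra difference was not tested.

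Gclm encodes the modifier subunit of glutamate cysteine ligase, which makes the first bond of glutathione. It was 6.43, 8.40, 8.62 and 8.62 in control eTregs and 8.77, 9.48 and 8.82 in KO eTregs. Control eTreg 1 lay near background and the other 3 controls were just below the KO arrays. The means were 8.02 ± 1.06 (SD, n = 4) and 9.02 ± 0.39 (SD, n = 3), and the difference was 1.01 (SE 0.44, 2.01-fold, 95% interval 0.08 to 1.93, limma adjusted P = 0.568). It was 0.48 (unadjusted P = 0.115 in limma) without control eTreg 1 and 0.78 (unadjusted P = 0.135 in limma) without KO eTreg 2. Its partner Gclc, the catalytic subunit, differed by 0.04 (SE 0.13).

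In all, 5 of the 38 genes had an unadjusted P below 0.05 in this comparison, beside 8.03% of all transcript clusters. The others were Gpx1 (0.34, SE 0.12, adjusted P = 0.385), Ftl1 (0.26, SE 0.11, adjusted P = 0.569) and, with a lower mean in the KO arrays, the oxidation resistance gene Oxr1 (-0.30, SE 0.13, adjusted P = 0.553), by limma. Arrays of both genotypes did not overlap for Msra, Gclm and Keap1, that is 3 of 38, beside 6.85% of all transcript clusters. Over the whole set, 31 of 38 genes had a higher mean in the KO eTregs, against 44.2% of all transcript clusters, and the median difference was 0.12 against -0.02. That median was 0.13 and 0.10 after subtracting array medians or 75th percentiles. The genes also moved together between arrays of a group, where the mean over the 38 had an SD of 0.125. Relative to the mean of the control eTregs, control eTregs 1 to 4 had 8, 30, 21 and 23 of 38 genes higher. Their medians were -0.09, 0.10, 0.01 and 0.02. The median between genotypes was carried by 2 of the 3 KO arrays, as follows.

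**Figure D3:**
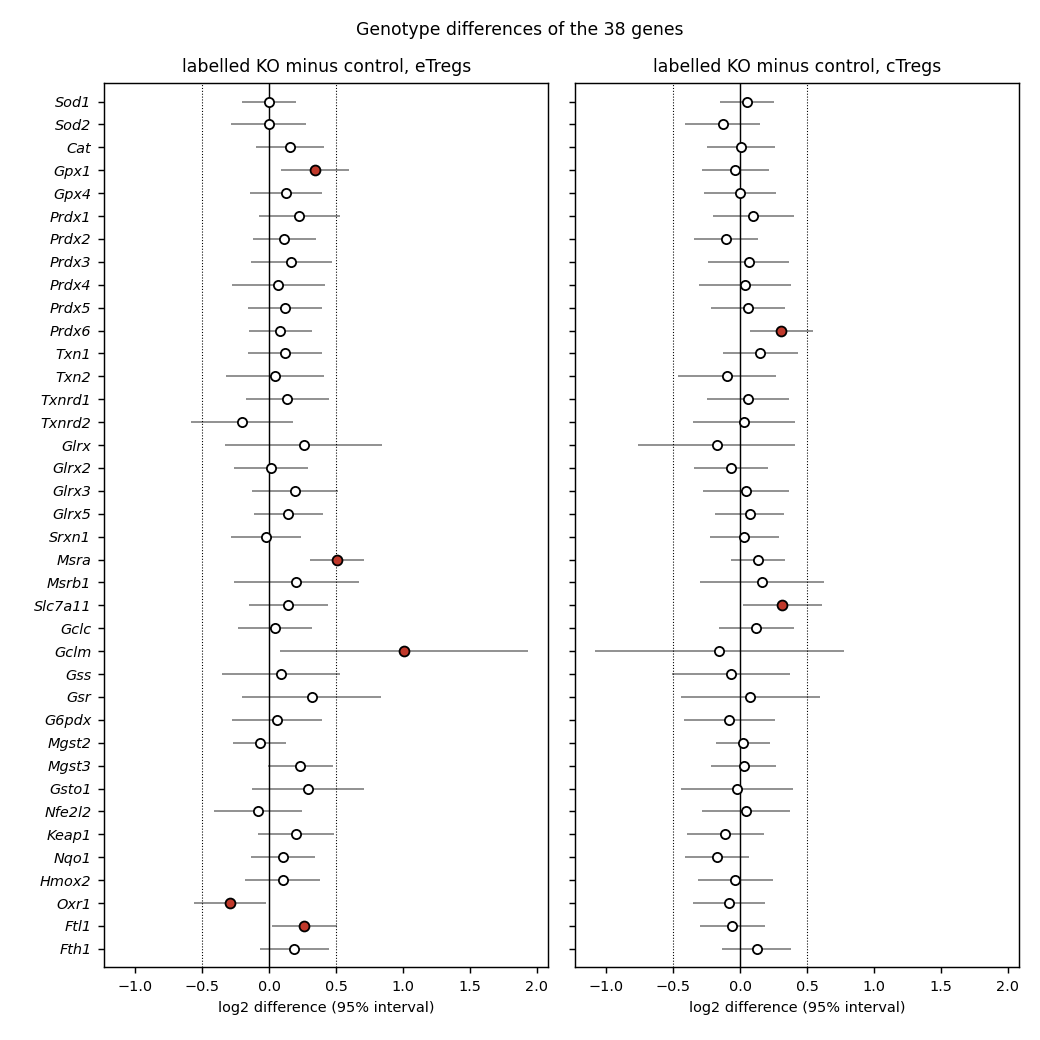
Log2 difference of each gene between arrays labelled KO and control arrays in eTregs (left) and cTregs (right), with its 95% interval from limma; filled points have unadjusted P below 0.05 and dotted lines mark 0.5 on either side. In eTregs 31 of 38 points lie above 0 and in cTregs 22 of 38 (44.2% and 54.8% of all transcript clusters), and most intervals include 0.

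The 3 KO eTreg arrays were not alike. Relative to the mean of the control eTregs, the median over the 38 genes was -0.09 in KO eTreg 1, 0.26 in KO eTreg 2 and 0.22 in KO eTreg 3, while that over all transcript clusters was 0.02, -0.04 and -0.04. KO eTreg 1 exceeded every control eTreg array for 4 of the 38 genes (10.5%, against 22.4% of all transcript clusters), KO eTreg 2 for 25 (65.8%, against 23.9%) and KO eTreg 3 for 26 (68.4%, against 19.1%). Gpx1, the main cytosolic glutathione peroxidase, was 13.14, 13.18, 12.97 and 12.97 in control eTregs and 13.15, 13.56 and 13.52 in KO eTregs. Only the last 2 KO arrays stood above the controls.

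Ferritin behaved in the same manner. Ftl1 was 12.45, 12.68, 12.64 and 12.61 in control eTregs and 12.64, 13.02 and 12.92 in KO eTregs. Fth1, the heavy chain that oxidises iron for storage, was 12.69, 12.97, 12.92 and 12.92 in control eTregs and 12.76, 13.19 and 13.24 in KO eTregs. For both chains KO eTreg 1 fell within the range of the controls. Glutathione reductase (Gsr) was 9.31 to 9.69 in controls and 9.34, 10.32 and 10.03 in KO arrays, and the glutathione transferase Gsto1 was 9.67 to 9.96 in controls and 9.58, 10.45 and 10.41 in KO arrays. Catalase (Cat) was 11.63 to 11.95 in controls and 11.72, 12.08 and 12.03 in KO arrays.

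Markers of another cell type moved with these arrays. The summed linear signal of 17 monocyte and macrophage markers was 10926.5 to 13059 in control eTregs and 9983, 33373 and 33797 in KO eTregs 1, 2 and 3. It was 7695 to 8865 in control cTregs and 8681 to 9202 in KO cTregs. Of the 17 markers, 15 were above every control eTreg array in KO eTreg 2 and 15 in KO eTreg 3, but 2 in KO eTreg 1. Among the defining ones, Lyz2 was 8.60, 11.62 and 11.67 and C1qa 8.84, 12.10 and 12.18 in KO eTregs 1 to 3, against 8.98 to 10.26 and 9.66 to 10.32 in control eTregs. No marker of the list had a group mean at background. In the same comparison 11 of the 17 passed the threshold of the study and none the adjusted one, with a median of 1.04. Of 10 dendritic cell markers, 8 and 9 were above the controls in KO eTregs 2 and 3, and 6 of them passed the threshold of the study and 1 the adjusted one. Their summed signal was 5585 to 6399 in control and 6776 to 11490.4 in KO eTregs. Among the markers of other cells, 2 of 6 for plasma cells and 2 of 9 for CD8 T and NK cells passed the threshold of the study. None of 10 for erythroid cells, 8 for B cells or 8 for neutrophils did, and 4 of the neutrophil markers were at background. The erythroid sum still varied widely, from 8809 to 13418 in control eTregs and from 4979 to 15891 in KO eTregs. The globin gene Hbb-bs was 8.22, 12.39 and 10.12 in KO eTregs 1 to 3, against 10.83 to 12.02 in control eTregs. Of the 10 erythroid markers, 0, 3 and 1 were above every control eTreg array in KO eTregs 1, 2 and 3. The distance on the log2 scale between the medians of the positive and negative control probe sets of an array, a measure of RNA and hybridisation quality, was 2.51 to 2.74 in control eTregs and 2.68, 3.18 and 2.93 in KO eTregs 1 to 3. In KO cTregs 1 to 3 it was 2.68, 3.13 and 2.41. The median of the 38 genes relative to control cTregs was -0.09, 0.16 and -0.03 in these arrays. In KO cTreg 2, with macrophage marker signal of 9202, 30 of 38 were higher. The distance was 2.46, 2.83, 2.63 and 2.80 in control cTregs 1 to 4, with medians of -0.13, 0.02, -0.00 and 0.12. In control eTregs 1 to 4 it was 2.71, 2.74, 2.51 and 2.65, with medians of -0.09, 0.10, 0.01 and 0.02. The part of other cells and of RNA quality in the levels of the 38 genes was not tested, and in sorted bulk samples fewer cells of a type and less RNA per cell cannot be told apart.

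KO eTregs 2 and 3 were then left out, a choice made after seeing these markers. Of the 38 genes, 13 were higher in the 1 remaining KO array, beside 53.6% of all transcript clusters. The median difference was -0.09, beside 0.02 over all. Gpx1 then differed by 0.08 (SE 0.16) and Ftl1 by 0.04 (SE 0.16). The difference of Msra was 0.47 (SE 0.15, unadjusted P = 0.00547 in limma, adjusted P = 0.272). The lone array was assumed to vary like the other groups. In the fit of all arrays with array weights, its weight was 0.39, the lowest of the eTreg arrays. The weights of KO eTregs 2 and 3 were 0.77 and 1.52. KO eTreg 1 also differed from the control eTregs in marker lists. Its summed effector marker signal was 10154 against 13911 to 19383 in control eTregs, and its macrophage marker sum of 9983 lay below theirs. Of 7 central markers, 6 were above every control eTreg array, beside 5 and 1 in KO eTregs 2 and 3. Of 9 CD8 T and NK cell markers 5 were, beside 3 and 6 in KO eTregs 2 and 3. Its dendritic marker sum of 6776 lay above the 5585 to 6399 of the controls. Of 10 dendritic markers, 2 were above every control eTreg array, beside 8 and 9 in KO eTregs 2 and 3. The part of these cells in the Msra signal of KO eTreg 1 was not tested.

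**Figure D4:**
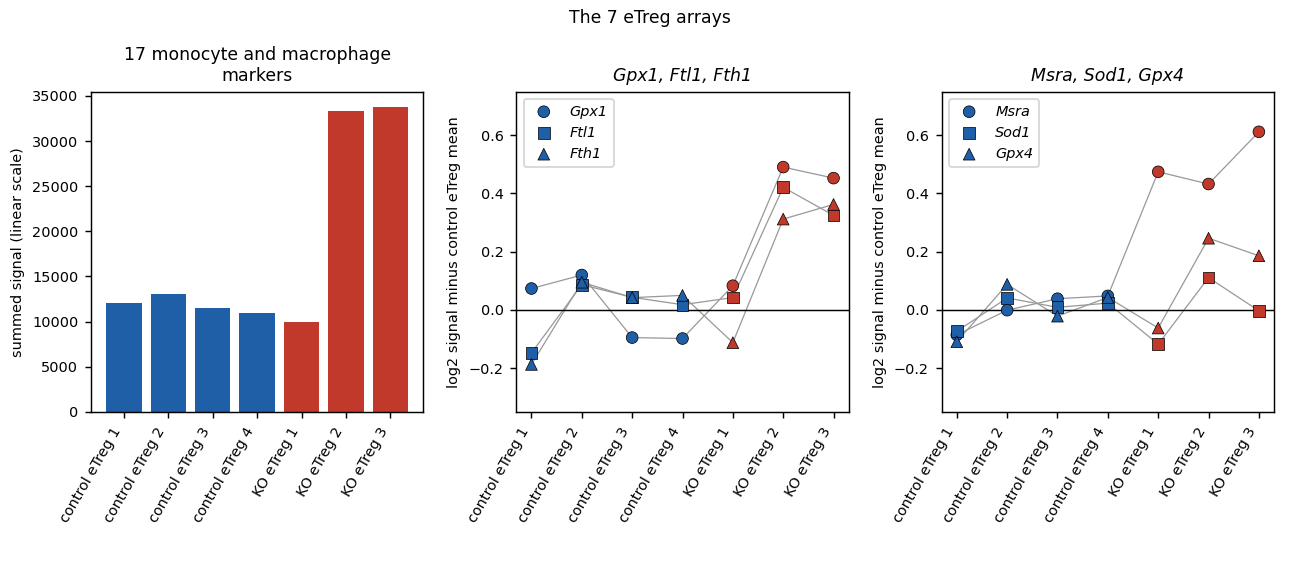
The 7 eTreg arrays: summed linear signal of 17 monocyte and macrophage markers (left), and log2 signal minus the control eTreg mean for Gpx1, Ftl1 and Fth1 (centre) and for Msra, Sod1 and Gpx4 (right), with controls in blue and KO in red. The marker sum is 33373 and 33797 in KO eTregs 2 and 3 and 9983 in KO eTreg 1; the centre genes are higher in the former 2 arrays, whereas Msra is higher in all 3.

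By role, the enzymes of superoxide and peroxide removal had a median difference of 0.12 between genotypes in eTregs, and 9 of 11 had a higher mean in KO arrays. The cytosolic superoxide dismutase Sod1 differed by -0.00 (95% interval -0.21 to 0.20) and the mitochondrial Sod2 by -0.00 (-0.29 to 0.28). Gpx4, which reduces lipid peroxides in membranes, differed by 0.12 (-0.14 to 0.39). The peroxiredoxins Prdx1 to Prdx6 differed by 0.07 to 0.22, and none of these intervals excluded 0.

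Among the thioredoxin, glutaredoxin and repair genes the median was 0.14 with 9 of 11 higher, and Msra was the 1 gene of them past the threshold of the study. Thioredoxin (Txn1) differed by 0.12 (-0.16 to 0.40), its cytosolic reductase Txnrd1 by 0.14 (-0.17 to 0.44) and the mitochondrial reductase Txnrd2 by -0.21 (-0.59 to 0.18). Txnrd2 was 10.52 to 10.96 in control eTregs and 10.70, 10.03 and 10.80 in KO eTregs, so that KO eTreg 2 alone was low. The sulfiredoxin Srxn1, a common Nrf2 target, differed by -0.02 (-0.28 to 0.24), and the glutaredoxins Glrx2, Glrx3 and Glrx5 by 0.01, 0.19 and 0.14. The second methionine sulfoxide reductase, Msrb1, differed by 0.20 (-0.26 to 0.67). It was 9.27 to 9.78 in control eTregs and 9.35, 9.96 and 10.12 in KO eTregs, and so followed the split of the arrays that Msra did not.

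Of the glutathione genes, 8 of 9 had a higher mean in KO eTregs and the median was 0.14. The cystine carrier Slc7a11 differed by 0.14 (-0.15 to 0.44) and glutathione synthetase (Gss) by 0.09 (-0.36 to 0.53). Glucose-6-phosphate dehydrogenase (G6pdx), which supplies NADPH, differed by 0.06 (-0.28 to 0.40). The transferases Mgst3 (0.23, -0.01 to 0.47) and Gsto1 (0.29, -0.13 to 0.70) had intervals that reached 0, and that of Mgst2 was -0.07 (-0.27 to 0.13). Nrf2 control showed no called difference either, with Nfe2l2 at -0.09 (-0.41 to 0.24), Keap1 at 0.20 (-0.08 to 0.49), Nqo1 at 0.10 (-0.14 to 0.34) and the constitutive haem oxygenase Hmox2 at 0.10 (-0.18 to 0.38). Of the 38 intervals, 25 lay wholly inside 0.5 on either side, beside 15967 of all 22203 transcript clusters. A list of 6 genes set down as mitochondrial (Sod2, Prdx3, Txn2, Txnrd2, Glrx2 and Glrx5) had a median of 0.03. It need not hold every one of the 38 with a mitochondrial form.

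In cTregs none of the 38 genes passed either threshold between genotypes. The threshold of the study was passed by 0.576% of all transcript clusters and the adjusted one by 0.045%. The median difference was 0.03 beside 0.02 over all transcript clusters, with 22 of 38 higher, beside 54.8% of all transcript clusters. Of the 38 intervals 31 lay inside 0.5, beside 16906 of all 22203 transcript clusters. Unadjusted P was below 0.05 for 2 of 38, beside 4.01% of all transcript clusters. Prdx6, a peroxiredoxin that uses glutathione, was 10.31, 10.58, 10.34 and 10.38 in control cTregs and 10.64, 10.76 and 10.73 in KO cTregs. The groups did not overlap, and it was the 1 gene of 38 for which this held, beside 5.05% of all transcript clusters. Its difference was 0.31 (SE 0.11, unadjusted P = 0.014, limma adjusted P = 1.0). Slc7a11 differed by 0.31 (SE 0.14, unadjusted P = 0.0383 in limma) and overlapped, with 7.66 to 7.94 in controls and 8.18, 8.38 and 7.84 in KO cTregs. It came to 0.19 (unadjusted P = 0.212 in limma) without KO cTreg 2. Msra differed by 0.13 (SE 0.10) in cTregs.

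The genotype difference in eTregs minus that in cTregs was tested as an interaction. No gene of the 38 passed the threshold of the study there, which 3.05% of all transcript clusters passed, and 0% of all transcript clusters passed the adjusted one. By limma, 1358 transcript clusters had unadjusted P below 0.05 in this test (6.12%), among them 2 of the 38. Msra had an interaction of 0.37 (SE 0.13, limma adjusted P = 0.789) and Gpx1 one of 0.38 (SE 0.17, limma adjusted P = 0.8). With single arrays left out, that of Msra was 0.32 to 0.42 and that of Gpx1 0.30 to 0.51, and without KO eTreg 2 the unadjusted P of Gpx1 in limma was 0.105. The median interaction over the 38 genes was 0.13, beside -0.03 over all transcript clusters. The widest interaction of the 38 was that of Gclm, at 1.16 (SE 0.62, 95% interval -0.15 to 2.47, limma adjusted P = 0.839). Gclm passed the threshold of the study with the array number as a replicate block and in 3 fits with single arrays left out (KO cTreg 2, control eTreg 3 or control eTreg 4), at 1.16 to 1.52, and Glrx, Gpx1 and Gsto1 passed it without KO eTreg 1.

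Around the 38 genes, 106 related genes were read from 7 lists (partners of Nrf2, iron and haem, other glutathione genes, other thioredoxin and selenoprotein genes, NADPH supply, NADPH oxidase, and lipid peroxide defence). Between genotypes in eTregs, 10 of the 106 passed the threshold of the study, all higher in KO, beside 2.72% of all transcript clusters, and none passed the adjusted one, beside 0.117%. Among them were the iron exporter ferroportin (Slc40a1, 1.08), the inducible haem oxygenase Hmox1 (1.04), the glutathione transferase Gstm1 (0.68) and the cytosolic isocitrate dehydrogenase Idh1 (0.63). The ferroxidase ceruloplasmin (Cp), also among the 10, was at background in every array but KO eTreg 3 (7.93), so no difference is given for it. Hmox1 was 9.48, 8.98, 9.28 and 8.96 in control eTregs and 9.14, 10.96 and 10.56 in KO eTregs, and Slc40a1 was 9.69, 9.54, 9.64 and 8.91 in controls and 8.82, 11.48 and 11.26 in KO arrays. Both were high in KO eTregs 2 and 3, as the macrophage markers were, a list to which they also belong. By list, 5 of 20 iron and haem genes, 2 of 26 other glutathione genes, 2 of 14 NADPH supply genes and 1 of 6 NADPH oxidase genes passed. None of the 12 Nrf2 partners, the 18 other thioredoxin and selenoprotein genes or the 10 genes of lipid peroxide defence did. With KO eTregs 2 and 3 left out, the difference was -0.04 for Hmox1 and -0.62 for Slc40a1.

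Iron uptake and the autophagy adaptor differed less. The transferrin receptor Tfrc differed by 0.07 (SE 0.19) and Sqstm1 by 0.11 (SE 0.13) in eTregs, and by -0.23 (SE 0.19) and 0.15 (SE 0.13) in cTregs. In cTregs 1 of the 106 related genes passed the threshold of the study, the mitochondrial malic enzyme Me2, at -0.59 (SE 0.21, limma adjusted P = 1.0). In eTregs its difference was 0.52 (SE 0.21), and the interaction of 1.1 (SE 0.30) had a limma adjusted P of 0.672.

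Between the subsets, 4 of the 106 related genes passed the adjusted threshold in controls, beside 3.06% of all transcript clusters. The phagocyte NADPH oxidase subunit Cybb was 3.39 higher in eTregs (SE 0.34, limma adjusted P = 2.16e-05) and Slc40a1 1.67 higher (SE 0.41, adjusted P = 0.03), while the glutathione hydrolase Ggt5 had a difference of -0.96 (SE 0.18, adjusted P = 0.00536) and the Nrf2 competitor Bach2 one of -0.83 (SE 0.13, adjusted P = 0.00105). The call of Slc40a1 was lost in 7 of 14 fits with single arrays left out (limma adjusted P up to 0.0901), and the other 3 were kept in all 14. Control eTregs also held more macrophage marker signal than control cTregs, as given above, and the part of it in Cybb and Slc40a1 was not tested. In the KO arrays 5 passed, with Cybb at 2.77, Slc40a1 at 2.56, Hmox1 at 1.56 and Hfe, which acts on iron uptake, at 0.96, all higher in eTregs, and the glutathione transferase Gsta4 at -0.61, beside 2.35% of all transcript clusters. With single arrays left out, Gsta4 lost its adjusted call in 11 of 14 fits, Hfe in 5 and Hmox1 in 4. With KO eTregs 2 and 3 left out none of the 5 kept it, and the differences were 1.62 for Cybb, 0.86 for Slc40a1, 0.48 for Hmox1, 0.20 for Hfe and -0.41 for Gsta4.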

How the data were processed

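Total RNA of sorted cells was labelled with the Affymetrix whole transcript kit and hybridised to Clariom S mouse arrays. The authors summarised the arrays with RMA in Affymetrix Expression Console 1.1, per the labels and the study's methods, and deposited 1 table of log2 signal for 28846 entries. RMA sets the arrays to 1 distribution, so that differences are relative to the other genes of an array. Of the entries, 6640 control probe sets and 3 with a blank symbol were left out, and no filter was set on low signal.

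Differences were computed with limma 3.58.1 in R 4.3.3 on all 22203 transcript clusters and 14 arrays, with 1 mean for each of 4 groups and moderated variances (10 residual and 5.65 prior degrees of freedom), and P values were adjusted by the Benjamini-Hochberg method over all transcript clusters. The fit was tested on simulated data. The study gives its chimeras as 4 control and 3 KO mice, but the labels tie no array to a mouse, so P values measure the spread between these arrays, and the number of arrays limits the precision. The 38 genes and all other lists were chosen with earlier results of these data known. All 38 were named. Of the related genes, up to 6 of the largest past the adjusted threshold per comparison were named, between genotypes the 6 largest past the threshold of the study, and Hmox1, Tfrc, Slc40a1 and Sqstm1 always, and 1 result is not reported here. Alternatives were other scalings, a signal filter, other variance models, array weights, fewer arrays and a replicate block.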

Additional observations from a re-analysis of the deposited data

Results flagged for a closer look

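In each control group of 4 arrays, the lowest and highest array was compared with the others for all 38 genes (76 groups of values), by the gap to the nearest array over the range of the group. Chance alone would mark about 1 in 20. In 2 of the 76, both in control eTregs, 1 array stood apart, and in both it was control eTreg 1 at the low end. For Gclm the ratio was 0.896, with 6.43 in that array and 8.40 to 8.62 in the others. For Glrx3, a glutaredoxin that takes part in handling iron-sulfur clusters, the ratio was 0.842, with 10.62 in that array and 10.92 to 10.98 in the others. No gene of the 38 was found to have genotype differences that ran in opposite directions in both subsets in every array.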

How the results depend on the processing

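In 48 pairs of a gene and a comparison, 1011 of 1070 alternatives were counted as unchanged, 44 lost the adjusted call and 13 gained it. A change of sign was counted only where the main fit had unadjusted P below 0.05. Most pairs had no call to lose, and sizes moved. Between genotypes in eTregs, Gpx1 ran from 0.083 to 0.47, Ftl1 from 0.042 to 0.37 and Gclm from 0.48 to 1.21. Between subsets in KO arrays Glrx ran from 0.80 to 2.05. The 2 changes of sign counted were Hmox1 (-0.039) and Slc40a1 (-0.62) between genotypes in eTregs, both with KO eTregs 2 and 3 left out. Other pairs crossed 0 without being counted, among them Sqstm1 (-0.19 to 0.26) and Tfrc (-0.082 to 0.14) between genotypes in eTregs. Between genotypes in eTregs, the 2 genes past the threshold of the study became 1 when only the arrays compared were fitted and with 75th percentiles subtracted. The count was also 1 with the signal filter, with trend and robust variances and with array weights. The adjusted count of 0 became 1 (Msra) with the filter and with array weights. Leaving out single arrays gave 0 to 5 and, adjusted, 0 to 1. The highest count was that without KO eTreg 1 (Msra, Gclm, Glrx, Gsr and Gsto1). In cTregs both counts were 0 throughout. Between the subsets in controls, the signal filter (above-median mean signal) gave 0 in both counts, since it keeps 32 of the 38 genes, without Glrx and Mgst3, array weights gave 3 in both, and single arrays gave 1 to 3 and, adjusted, 1 to 2. In the KO arrays, the adjusted count of 1 was 0 when only those arrays were fitted, and both counts were 0 with the filter. Leaving out single arrays gave 1 to 2 there. With KO eTregs 2 and 3 left out, the largest differences between subsets in KO arrays were those of Glrx (0.80), Gsto1 (-0.63), Txn2 (-0.55) and Prdx6 (-0.52). The interaction count of 0 was 0 to 3 with single arrays left out. For the alternatives in this paragraph no share of all transcript clusters passing is given, so their counts cannot be set beside one.

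Leaving out KO eTregs 2 and 3, chosen after seeing the data, moved the median of the 38 genes to -0.092 between genotypes in eTregs, -0.11 between subsets in KO arrays and -0.11 in the interaction. With single arrays left out the median between subsets in KO arrays ran from -0.015 to 0.17. Between genotypes in eTregs it ran from 0.078 to 0.24, and in the interaction from 0.028 to 0.23. Both of these ranges were lowest without KO eTreg 2 and highest without KO eTreg 1.

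Same-numbered cTreg and eTreg arrays of a genotype had deviations from their group means that correlated at 0.0443 to 0.303, not all above 0.1. Every array but control cTreg 4 and KO eTreg 3 correlated best with the array of its own number. With the numbers as a random block, the consensus correlation was 0.238. The main fit did not use the numbers to pair arrays, as the link did not hold for every array. Its comparisons between subsets thus leave out a link that most arrays showed. With the array numbers as a replicate block, 1 gene (Gclm) passed the threshold of the study in the interaction in place of 0. The count between the subsets in controls went from 2 to 3, and no other count of calls changed. The causes of these changes were not tested.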
